A study of Mus musculus with 6 samples.

Results

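The chloride intracellular channel (CLIC) family of the mouse was followed in cells with and without the adaptor protein LDB1. Its members are Clic1, Clic3, Clic4, Clic5 and Clic6, and all 5 were read by the array, by 11 probe sets out of 45101. A probe set is a group of short array probes for one transcript. Probe sets were taken where the array annotation gave exactly 1 gene, and of several for a gene the one brightest on average over the 6 arrays stood for it, as for all 18193 genes measured. The probe set was thus chosen by its measured mean. The family itself was put forward with earlier results of these data known, the low Clic6 level in knockout cells among them, so the values of Clic6 are a description and are no independent evidence of a change.

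The cells were Flk1+ blast colony-forming cells, the form in which the haemangioblast, from which blood and endothelial cells arise, is studied in culture. They were isolated from day 4 embryoid bodies grown without leukaemia inhibitory factor from mouse embryonic stem cells. The wild-type cells were Ldb1+/+ and the knockout cells Ldb1-/-, with 3 biological replicates each, numbered 1 to 3 in both genotypes. The labels do not say how many clones the lines came from, which part of Ldb1 was deleted, or what the shared replicate numbers stand for. Levels are given as log2 values, so that a difference of 1 is a doubling. RNA was taken from whole populations, in which fewer cells of a type and less RNA per cell cannot be told apart.

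CLIC proteins share the fold of the omega class glutathione transferases and exist both as soluble proteins and in membranes. They are known for roles at the actin cytoskeleton, in vesicles and in redox chemistry as much as for chloride transport. CLIC1 and CLIC4 take part in the formation of endothelial tubes. Clic4 also acts in TGF-beta signalling, CLIC5 joins radixin in the hair cells of the inner ear, and CLIC3 was described in human cells as a nuclear protein. CLIC6, known as parchorin in the rabbit, is found in epithelia that secrete water.

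LDB1 itself does not bind DNA but is brought to it by partners that recognise GATA and E-box motifs. For this reason the start-site regions of Clic1 and Clic4 are shown, the members that were read above the array median on every array and for which the RefSeq table held one. The table (build GRCm38.p6) held 4 of the 5 genes, and Clic6 was the one without an entry. Each sequence runs from 250 bases before the start to 50 after it, 5′ to 3′ on the gene's strand, and capitals mark the E-box CAGCTG. The Clic1 region lies at chr17:35049993-35050292 on the + strand and the Clic4 region at chr4:135272711-135273010 on the − strand.
Clic1: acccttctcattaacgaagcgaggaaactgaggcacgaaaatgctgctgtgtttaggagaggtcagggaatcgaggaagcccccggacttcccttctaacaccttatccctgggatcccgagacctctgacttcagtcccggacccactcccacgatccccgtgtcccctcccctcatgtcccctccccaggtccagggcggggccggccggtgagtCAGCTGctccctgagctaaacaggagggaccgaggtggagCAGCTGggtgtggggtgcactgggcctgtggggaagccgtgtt
Clic4: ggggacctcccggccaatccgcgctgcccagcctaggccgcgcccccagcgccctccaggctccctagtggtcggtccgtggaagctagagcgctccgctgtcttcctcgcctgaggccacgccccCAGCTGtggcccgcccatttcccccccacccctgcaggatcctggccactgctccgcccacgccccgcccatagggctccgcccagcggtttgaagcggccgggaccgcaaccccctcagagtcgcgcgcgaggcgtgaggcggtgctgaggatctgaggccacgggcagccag
The search covered both strands. The motif marked is its own reverse complement, and no other motif searched overlapped it here. It occurred 2 times in the Clic1 region and 1 time in that of Clic4, and 16.3% of the 32851 regions in the table held it. The other E-box searched, CAGGTG, was not among these letters (20.2% of all regions held it). The GATA motif AGATAA (held by 11.2%) and its variant TGATAA (held by 9.1%) were not among them either. The regions of Clic3 and Clic5 are not shown. Neither held CAGCTG or a GATA motif, and that of Clic3 held CAGGTG 1 time.

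The family fell into well-read and dim members. Clic1 and Clic4 were among the brightest probe sets on every array, Clic6 in the middle range, and Clic3 and Clic5 in the lower part, so that 3 of the 5 genes had a mean above the median of all probe sets. Over the 6 arrays 94.4% to 95.9% of probe sets read at or below Clic1, 96.2% to 98.0% at or below the Clic4 probe set used, and 32.0% to 78.3% at or below Clic6.

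**Figure D1:**
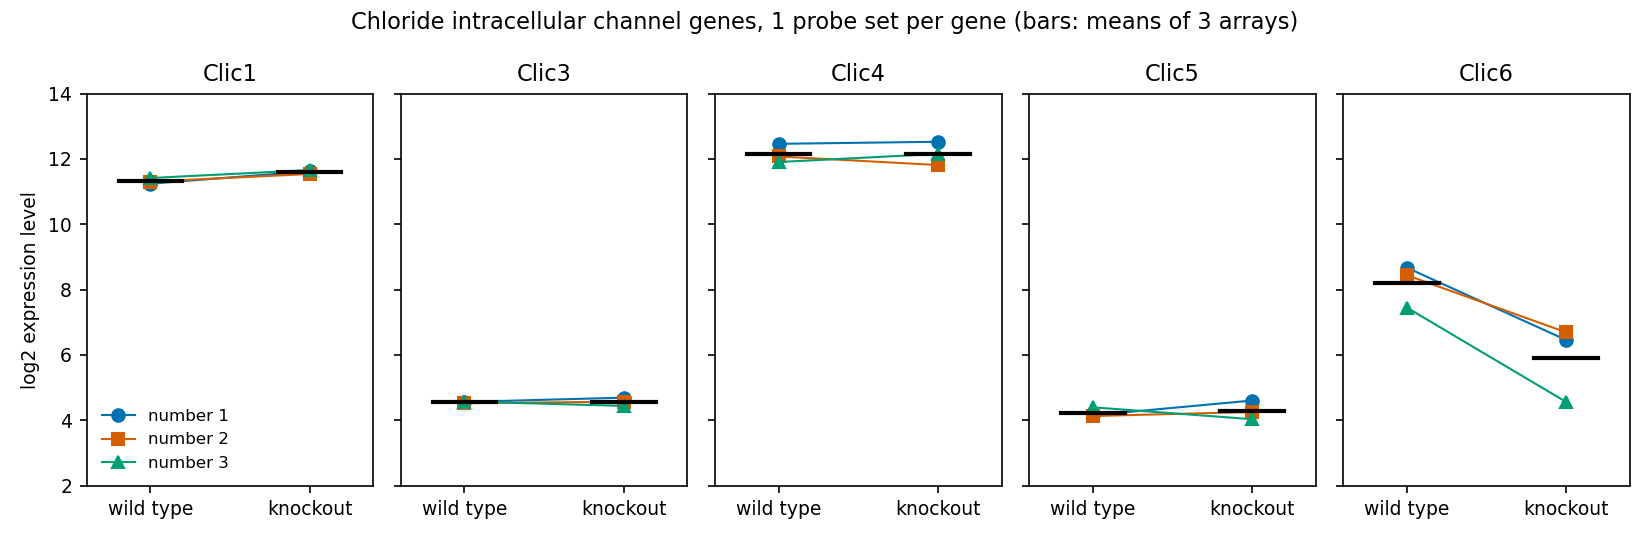
Log2 expression level (vertical axis) of the 5 family members in wild-type and knockout arrays. Points are single arrays, lines join arrays of the same replicate number and black bars are means of 3 arrays; the Clic6 knockout arrays (4.56 to 6.69) lie below all its wild-type arrays (7.45 to 8.67), the Clic1 knockout arrays (11.54 to 11.66) above its wild-type arrays (11.24 to 11.41), and the groups of the other genes overlap.

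Clic6 was the member with the lowest levels in knockout relative to wild-type cells. Its wild-type arrays read 8.67, 8.44 and 7.45 for replicates 1, 2 and 3, and its knockout arrays 6.46, 6.69 and 4.56. The 3 knockout arrays were all below the 3 wild-type arrays, and the number 3 array was the lowest of each genotype. The mean went from 8.19 ± 0.65 to 5.91 ± 1.17 (SD, n = 3), a difference of −2.28 on the log2 scale (95% interval −3.72 to −0.85), or 4.86-fold. Knockout replicate 3, at 4.56, read within the range of the dim Clic3 (4.44 to 4.69). Without that array the difference was −1.61 (no block). By replicate number the differences were −2.21, −1.75 and −2.89, so that the direction was the same in all 3 pairs. Among all genes, 14.9% were lower in all 3 pairs and 4.47% had knockout arrays wholly below wild-type arrays. In the ranking of 18193 differences, Clic6 was the 9th lowest.

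The call on Clic6 depended on the replicate number. In limma's fit across all genes without a block it did not pass the threshold of 0.05 (adjusted p = 0.756), a fit in which 0.022% of genes were called. With the replicate number as a block it did (adjusted p = 0.0194), where 0.341% of genes were called, 0.231% in the lower direction. With the number as a random block it did not (limma, adjusted p = 0.143). The blocked interval of the difference was −2.80 to −1.76. Since the gene was chosen with this difference known, the counts of 0 of 5 members called without the block and 1 of 5 with it are descriptions.

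Both probe sets of Clic6 were lower in knockout cells, by different amounts. The second one, 1434165_at, read 7.28, 7.70 and 7.25 in wild-type and 6.41, 6.67 and 6.21 in knockout arrays, again with no overlap. Its differences by number were −0.87, −1.03 and −1.04, close to each other, while those of the first, 1454866_s_at, spread from −2.89 to −1.75. The mean difference of 1434165_at was −0.98 (blocked 95% interval −1.28 to −0.67), and the blocked interval of 1454866_s_at in the same fit over probe sets, −2.82 to −1.74, did not reach it. Without the block that interval was −3.75 to −0.81 and the intervals of the 2 probe sets overlapped. The suffix _s_at marks probe sets that can bind more than one transcript. The part of this in the wider difference was not tested. When p-values were adjusted over all 45037 probe sets, neither passed: limma gave 1.00 and 0.668 without the block and 0.0507 and 0.104 with it, where 0.0222% and 0.0555% of probe sets were called.

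**Figure D2:**
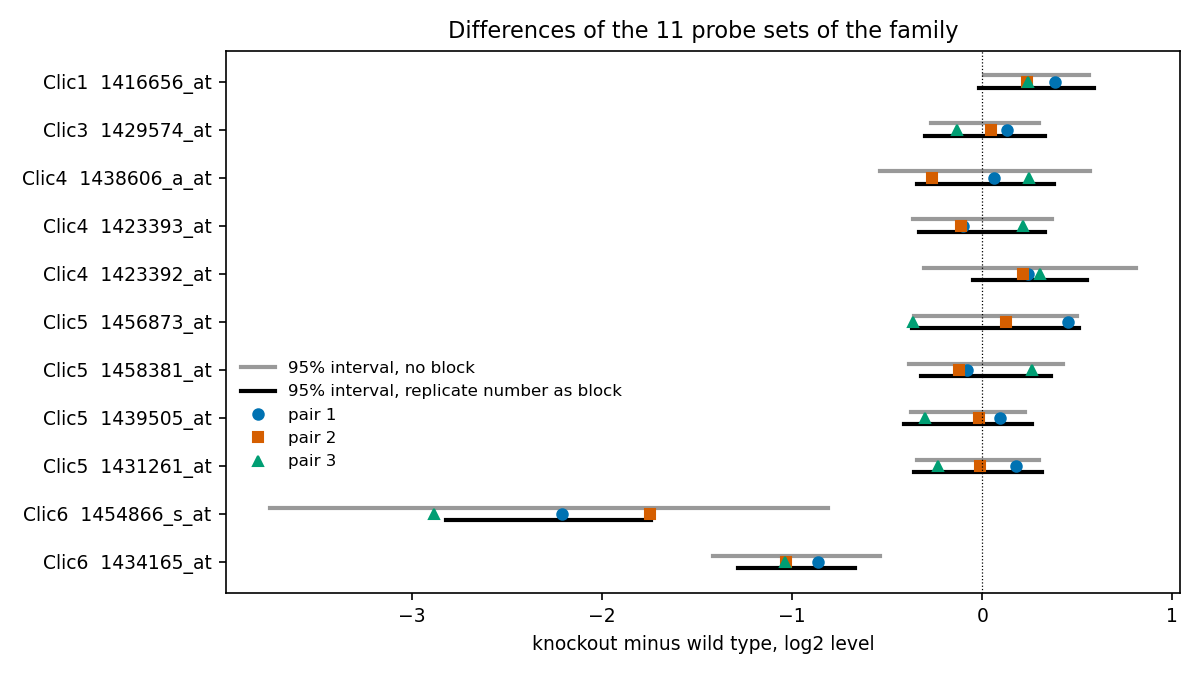
Knockout minus wild-type difference in log2 level (horizontal axis) for the 11 probe sets of the family. Coloured points are the 3 pairs of equal replicate number, grey and black lines the 95% intervals without and with the number as a block; the 2 Clic6 probe sets lie left of 0 in every pair, and the intervals of most others span 0.

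Clic1, which in macrophages moves to phagosomes, was slightly higher in knockout cells. Its wild-type arrays read 11.24, 11.30 and 11.41 and its knockout arrays 11.62, 11.54 and 11.66. All knockout arrays were above all wild-type arrays, with differences by number of 0.38, 0.23 and 0.24. The means were 11.32 ± 0.09 and 11.61 ± 0.06 (SD, n = 3), a difference of 0.29 (95% interval −0.0015 to 0.57), or 1.22-fold. It did not pass limma's test (adjusted p = 1.00, blocked 0.598). Groups that did not overlap in this direction were found for 3.45% of genes, 13.5% were higher in all 3 pairs and 0.11% were called higher with the block.

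Clic4, which is needed for tube formation by endothelial cells, showed no difference beyond its spread. The wild-type arrays read 12.46, 12.07 and 11.90 and the knockout arrays 12.52, 11.81 and 12.15, with overlapping groups. The differences by number were 0.06, −0.26 and 0.25, and their mean of 0.02 (95% interval −0.53 to 0.56) did not pass (limma, adjusted p = 1.00, blocked 0.994). After repeated quantile normalisation the difference was −0.028. Of its 2 other probe sets, 1423393_at differed by 0.00 (blocked 95% interval −0.33 to 0.33). The dimmer 1423392_at read 8.24, 7.73 and 8.28 in wild-type and 8.48, 7.94 and 8.59 in knockout arrays. It was higher by 0.24, 0.21 and 0.31 in the 3 pairs, although the groups overlapped, and did not pass (limma, blocked adjusted p = 0.748). Among the family's 11 probe sets, 2 were higher in all 3 pairs (this one and that of Clic1) and 2 lower (those of Clic6), beside 15.7% and 11.7% of all probe sets.

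Clic3 and Clic5 were dim in both genotypes. Clic3, whose human product binds the kinase ERK7, read between 4.44 and 4.69 on all 6 arrays, with 29.3% to 33.8% of probe sets at or below it. Its difference was 0.01 (95% interval −0.28 to 0.31; limma, adjusted p = 1.00). Clic5, whose loss causes deafness in the jitterbug mouse, read 4.16, 4.13 and 4.40 in wild-type and 4.60, 4.26 and 4.03 in knockout arrays, and its knockout minus wild-type differences of 0.45, 0.12 and −0.36 by number did not share a direction. Its mean difference was 0.07 (95% interval −0.36 to 0.50; limma, adjusted p = 1.00). The 3 other Clic5 probe sets differed by 0.02, −0.08 and −0.02. At such levels the arrays give little room to see a decrease.

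**Figure D3:**
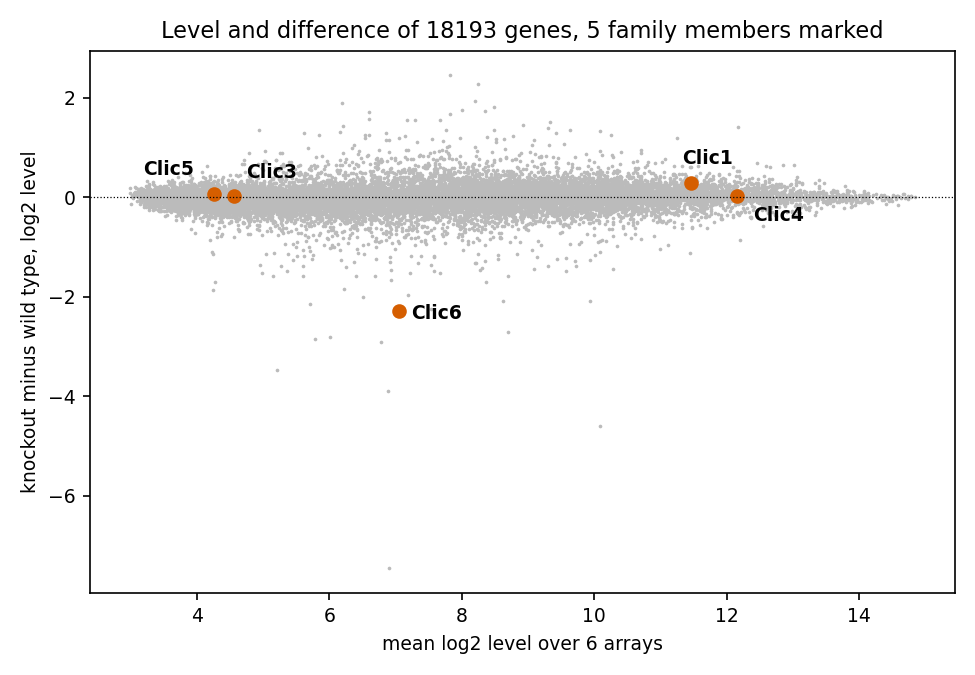
Mean log2 level over 6 arrays (horizontal axis) against the knockout minus wild-type difference (vertical axis) for 18193 genes in grey, with the 5 family members in orange. Clic6 (mean 7.05, difference −2.28) lies apart below the bulk of genes, while the other 4 lie within it.

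The replicate numbers were compared across the family in a test that does not use the genotype difference. Clic6 was the 1 member of 5 that differed between the numbers (limma's moderated F test, adjusted p = 0.0259), a call made for 9.15% of all genes. Its mean over both genotypes was 7.56 for number 1, 7.57 for number 2 and 6.01 for number 3. These are values of 1454866_s_at, which also passed in the fit over probe sets (moderated F test, adjusted p = 0.0414). The other Clic6 probe set, 1434165_at, did not (0.252). It read 7.25 and 6.21 on the number 3 arrays and 7.28 and 6.41 on those of number 1. Clic4 read 12.49, 11.94 and 12.03 by number and did not pass (adjusted p = 0.171), and for Clic1, Clic3 and Clic5 the adjusted p lay between 0.849 and 0.899. For Clic4 it ran from 0.0106 without knockout replicate 3 to 0.723 without knockout replicate 1, and it passed in 3 of 10 alternatives. Both arrays of number 3 also stood apart in a control probe set for 18S ribosomal RNA, which read 11.93 and 12.1 there and 8.51 to 9.39 on the other arrays. The control probe sets for the 5′ ends of beta-actin and Gapdh read 12.93 to 13.22 there and 10.19 to 11.49 elsewhere. Controls for the 3′ ends of beta-actin and Gapdh were not compared, so these values do not show how RNA quality differed. The part of RNA quality in the low 1454866_s_at values of number 3 was not tested. Without both arrays of that number, in a blocked fit chosen after seeing the data, the Clic6 difference was −1.98 (limma, adjusted p = 1.1e-05). That fit called 815 genes, beside 50 and 267 without number 1 or 2, so its p-value is no test of RNA quality.

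Clic6, Clic5 and Clic4 each lie in a cluster with a Runx and a Rcan gene, a layout that comes from duplication of an ancestral segment. Runx genes encode transcription factors, of which RUNX1 is required for definitive blood formation, and Rcan genes encode inhibitors of calcineurin. In the RefSeq annotation (GRCm38.p6) the order is Rcan1, Clic6, Runx1 in the first, Rcan2, Clic5, Runx2 in the second and Runx3, Clic4, Rcan3 in the last, with other genes between some of them. Among the 5 of 6 cluster genes analysed here besides the family (Runx2 was not), 4 were lower and 1 higher in knockout cells, with a median difference of −0.08 beside −0.015 for all genes, of which 46.3% were higher. None was called by limma, with or without the block, and at an unadjusted p under 0.05 there were 0 without and 2 with it, beside 3.85% and 8.94% of all genes.

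The gene on the other side of Clic6 from Rcan1, Runx1, was lower in each pair. It read 8.52, 7.92 and 7.02 in wild-type and 7.67, 6.80 and 6.36 in knockout arrays, and the groups overlapped. Its differences by number were −0.85, −1.12 and −0.66, with a mean of −0.88 that did not pass (limma, adjusted p = 1.00, blocked 0.0893). With the block and without both arrays of number 3, a fit chosen after seeing the data, Runx1 passed (−0.99, limma, adjusted p = 0.00114). That fit called 815 genes. With the block without number 1 or 2, where 50 and 267 genes were called, Runx1 did not pass (limma, adjusted p = 0.287 and 0.144). With 1 array left out and no block its difference ran from −1.28 without wild-type replicate 3 to −0.53 without wild-type replicate 1. All 6 Runx1 probe sets had a negative mean difference and 5 were lower in all 3 pairs. Like Clic6, the Runx1 probe set used was lowest in number 3 and differed between the numbers (moderated F test, adjusted p = 0.0189). The other Runx1 probe sets did not all share this pattern. Another was also lowest in number 3, at 5.65 in wild-type and 5.185 in knockout cells. A further probe set read highest there in both genotypes, at 4.67 and 3.91. In the fit over probe sets the adjusted p of the Runx1 probe sets ran from 0.0296 to 0.701 (moderated F test).

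The other genes beside Clic6 differed less. 2410124H12Rik, a noncoding RNA gene and the nearest measured gene on the Rcan1 side, read 6.06, 6.26 and 5.71 in wild-type and 5.46, 5.66 and 5.41 in knockout arrays, with no overlap between groups. Its difference of −0.50 did not pass (limma, adjusted p = 1.00, blocked 0.281). Of all alternatives it passed only with the block without number 3 (−0.60, limma, adjusted p = 0.0194), the fit that called 815 genes. Rcan1 stood at 9.82 ± 0.44 and 9.76 ± 0.32 (SD, n = 3), with overlapping groups and a difference of −0.06. In the other clusters Runx3 differed by −0.08, Rcan3 by 0.34 and Rcan2, dim on all arrays, by −0.48, with blocked adjusted p in limma between 0.443 and 0.959. In that same fit Rcan2 passed (−0.68, limma, adjusted p = 0.013), but with the block without number 1 or 2 it did not. Its unblocked difference ran from −0.79 without wild-type replicate 3 to −0.19 without wild-type replicate 1. The direction of Runx3 turned with array weights (0.037) and with probe sets averaged (0.0011), and that of Rcan1 with probe sets averaged (0.077). Ddah2, the neighbour of Clic1, differed by −0.29 (limma, blocked adjusted p = 0.689), and by −0.095 without knockout replicate 3 and −0.43 without knockout replicate 1.

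**Figure D4:**
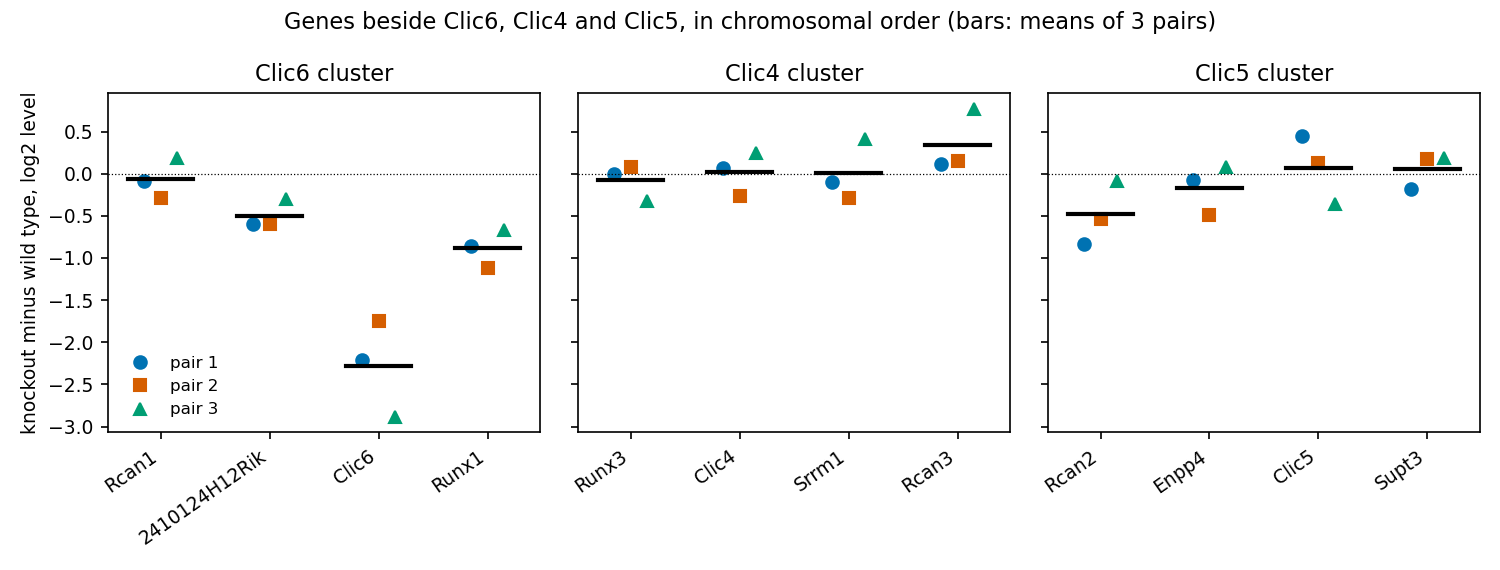
Knockout minus wild-type difference in log2 level (vertical axis) of measured genes around Clic6, Clic4 and Clic5, in chromosomal order. Points are the 3 pairs and bars their means; in the Clic6 cluster 2410124H12Rik, Clic6 and Runx1 lie below 0 in all pairs and Rcan1 does not.

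Genes that work with CLIC proteins were not called. Of 23 measured CLIC binding partners 12 were lower and 11 higher, with a median of −0.03 and 0 called by limma in either fit (1 at an unadjusted p under 0.05 in each). Over all genes 0.022% were called without and 0.341% with the block, and 3.85% and 8.94% had an unadjusted p under 0.05, which are the shares beside which the counts of all lists stand. Rdx, which encodes the partner radixin that links actin to the membrane, had a wild-type mean of 12.78 ± 0.28 and a knockout mean of 12.89 ± 0.30 (SD, n = 3; limma, adjusted p = 1.00). The 1 member at an unadjusted p under 0.05 was Hivep2, the gene of a zinc finger protein that CLIC4 accompanies in TGF-beta signalling, and it is named after its values were seen. It read 6.96, 6.67 and 6.72 in wild-type and 7.61, 7.12 and 7.18 in knockout arrays, with no overlap. Its difference was 0.52 (limma, adjusted p = 1.00, blocked 0.242). It passed with the block without number 3 (0.55, limma, adjusted p = 0.0344), the fit that called 815 genes. With the block without number 1 or 2 it did not pass.

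Chloride channels of other families were not called either. Of 29 measured genes 17 were lower and 12 higher, with a median of −0.01 and 0 called by limma in either fit (0 and 3 at an unadjusted p under 0.05, without and with the block). Clcn5, an endosomal chloride and proton exchanger, differed by 0.16 (limma, adjusted p = 1.00), and by 0.017 without knockout replicate 1. Of 17 genes with the glutathione transferase or thioredoxin fold 9 were lower and 8 higher (median −0.01), and of 18 genes of endothelial lumen formation 10 were lower and 8 higher (median −0.04). In these lists too 0 members were called by limma in either fit, with 1 and 0 at an unadjusted p under 0.05 without the block and 3 and 2 with it. Cdc42, a small GTPase gene of lumen formation, differed by 0.14 (limma, adjusted p = 1.00).

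The genes whose pattern over the 6 arrays was most like that of a member were taken by Pearson's r among the brighter genes, those with a mean over the median of the gene means. For Clic6 these were Stard5 (r = 0.997), Fam210b (0.988) and Homer2 (0.985), out of 9095 genes compared, of which 41 had an r over 0.95. For Clic1 they were Creb3 (0.992), Ccdc124 (0.979) and Stard10 (0.978), with 13 genes over 0.95, and for Clic4 Cachd1, Map2k2 and Xxylt1, each at 0.995 or 0.9945, with 134 over 0.95. For the dim members they were Elmo2, Nacc2 and Abi3 (Clic3, 0.991 to 0.971) and Os9, Abi3 and Cabin1 (Clic5, 0.991 to 0.976). With 6 arrays that share genotype and number, such values arise for many genes and are a description of these arrays.

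The isolation marker and the targeted gene were read on all arrays. Kdr, the gene of Flk1, read 11.33 to 12.44. It was lower in knockout cells in each pair (−0.25, −0.81 and −0.20, mean −0.42, blocked interval −0.81 to −0.036). The groups overlapped and it did not pass (limma, blocked adjusted p = 0.493). All 6 haemangioblast regulators listed, Kdr among them, lay above the median level, with 3 lower and 3 higher. Of them 0 were called by limma in either fit, with 0 and 3 at an unadjusted p under 0.05, without and with the block. Ldb1 differed by −0.43 (95% interval −1.49 to 0.63; limma, adjusted p = 1.00, blocked 0.481). It was lower in each pair (differences of −0.53, −0.71 and −0.06), with overlapping groups and a blocked interval of −0.82 to −0.046. It passed with the block without number 3 (−0.62, limma, adjusted p = 0.0181), the fit that called 815 genes. With the block without number 1 or 2 it did not pass. Its unblocked difference ran from −0.88 without knockout replicate 3 to −0.048 without knockout replicate 2. Which part of the gene was deleted is not known here, so that its level is a weak check of the labels. Some markers of other cells also differed between the genotypes. The mean level of 5 primitive erythroid markers was 6.49 to 6.57 in wild-type and 4.98 to 5.17 in knockout arrays, with 5 of 5 lower, 1 called without and 3 with the block, beside 0.022% and 0.341% of all genes. That of 9 visceral endoderm markers was 5.83 to 5.90 and 5.38 to 5.69, with 9 of 9 lower, 0 called by limma in either fit (1 at an unadjusted p under 0.05, 2 with the block) and 3 above the median level. That of 6 simple epithelium markers was 8.44 to 9.08 and 8.96 to 9.54, with 5 of 6 higher, 0 called by limma without the block (3 at an unadjusted p under 0.05) and 1 with it. In the cardiac mesoderm list 6 of 7 were lower, 0 were called by limma without the block (2 at an unadjusted p under 0.05) and 1 with it, in the paraxial list 4 of 5 were lower, in the smooth muscle list 3 of 4 and in the pluripotent list 4 of 6 were higher, and in the endothelial list 5 of 7 were higher, with 0 called by limma in the last 4 in either fit. At an unadjusted p under 0.05 these 4 lists held 0, 2, 1 and 0 genes without the block and 0, 2, 3 and 0 with it. By replicate number the median difference of the endothelial list was 0.59, 0.26 and −0.67, so that its direction turned in pair 3. The pluripotent median was 0.022, 0.065 and 1.108, largest in pair 3. That of visceral endoderm was −0.167, 0.009 and −0.352 and that of cardiac mesoderm −0.867, −0.046 and −0.777. The primitive erythroid, paraxial, simple epithelium and smooth muscle medians kept 1 direction in all 3 pairs, and that of the haemangioblast regulators did not. The part of the marker genes' differences in the Clic6 difference was not tested.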

How the data were processed

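Total RNA of 6 samples was measured on an Affymetrix mouse expression array. The deposited values are on the log2 scale. Per the submitters' processing notes they were made with RMA and the affy package, versions not given in the sources used here. From them limma 3.58.1 in R 4.3.3 was run (lmFit, eBayes, two-sided, 95% intervals) over 18193 genes and over 45037 probe sets without the 64 controls, with Benjamini-Hochberg adjustment and a threshold of 0.05. The labels call the samples biological replicates without saying that cultures were separate, so p-values measure the spread between these samples. The number of arrays limits the precision. Gene names came from the platform annotation (34945 probe sets with 1 gene, 932 with several, 9160 with none), with symbols updated through GRCm38.p6. Same-numbered arrays deviated together from their genotype means (correlations across probe sets of 0.698, 0.350 and 0.446, each above 0.1), so the blocked value is printed where it changes a call. The members and gene lists were chosen with earlier results of these data known. Other genes named were Ldb1, Kdr, cluster genes, the nearest measured neighbours, and from each list called members and the 2 others of highest mean, of which those no statement needed were left out. Alternatives were the block, each array left out, a filter on dim genes, centring, repeated quantile normalisation, trended robust variance, array weights and other choices of probe set. Figures were drawn with matplotlib 3.10.9.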

Additional observations from a re-analysis of the deposited data

How the results depend on the processing

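The Clic6 difference was negative in all 21 alternatives. Its groups did not overlap, so leaving out arrays or adding a block could not turn the sign. Clic6 passed limma's threshold in 7 of 7 with a fixed replicate block, all fits to these same arrays. It passed in 0 of 14 others, where adjusted p was lowest with array weights (0.110). With the block the difference was −2.28 (adjusted p = 0.0194) and −2.28 also among genes above the median (0.0170). Chosen after seeing the data, the block without both arrays of number 1, 2 or 3 gave −2.32, −2.55 and −1.98, with probe sets averaged −1.63 (0.0134), and with unsuffixed probe sets −0.98 (0.0418). The number as a random block gave an adjusted p of 0.143. With 1 array left out and no block the Clic6 difference ran from −2.68 without knockout replicate 2 to −1.61 without knockout replicate 3. The Clic1 difference, also of groups without overlap, was positive in all 21 alternatives and passed in none.

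The near-zero differences had no stable sign. Clic4 was −0.028 after repeated quantile normalisation, −0.10 with array weights, and −0.0074 and −0.10 with the block without the arrays of number 1 or 3. Clic3 was −0.045 and −0.0014 with the block without number 1 or 2. Clic5 was −0.12 with the block without number 1 and −0.0023 with probe sets averaged, with or without the block. With 1 array left out they ran from −0.16 to 0.19 for Clic4, −0.049 to 0.077 for Clic3 and −0.083 to 0.20 for Clic5. Probe set 1423393_at was −0.00040 after centring and −0.080 to 0.11 with 1 array left out, 1431261_at −0.10 to 0.044 and 1458381_at −0.13 to 0.13. Runx3 was 0.037 with array weights, 0.039 with the block without number 3, 0.0011 with probe sets averaged, with or without the block, and −0.15 to 0.036 with 1 array left out. Rcan1 was 0.077 with probe sets averaged, with or without the block, 0.052 with the block without number 2, and −0.30 to 0.13 with 1 array left out. Rcan3 (0.34) and Rdx (0.10), by contrast, kept their sign in 20 of 21 alternatives each. With 1 array left out Rcan3 ran from −0.026 to 0.55 and Rdx from −0.051 to 0.28. Cdc42 was −0.027 with unsuffixed probe sets in both fits.

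The genes called numbered 4 without a block, 1 (without knockout replicate 3) to 6 (without wild-type replicate 3) with 1 array left out, 2 without knockout replicate 1 or 2, 68 with array weights, 62 with the replicate block, 37 with it as a random block, 55 with it above the median, 48 with probe sets averaged, 50 with unsuffixed ones, and 50, 267 and 815 without the arrays of number 1, 2 or 3. Calls between replicate numbers were 1664, 3145 with trended variance, 750 with probe sets averaged, and 407 (without wild-type replicate 1) to 7044 (without knockout replicate 3) with 1 array left out. Clic6 kept its call between numbers in all 10 alternatives. Its probe set 1434165_at did not pass in the fit over all probe sets (limma's moderated F test, adjusted p = 0.252). The median of the Runx and Rcan genes ran from −0.304 to −0.078 and that of other chloride channels from −0.031 to 0.09 with 1 array left out. The causes were not tested. Signal near background limits what can be seen of Clic3 and Clic5, and 3 arrays per genotype limit the rest.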
